A study of Homo sapiens
Mus musculus and Homo sapiens with 12 samples.

Results

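Human gene expression in heterokaryons 3 days after fusion was compared with that in unfused co-cultures of the same parental cells. The members are the 2 libraries titled as day 3 heterokaryons, replicates 1 and 2, and the 2 co-culture libraries, replicates 1 and 2, which are 4 of the 12 samples of the series. Only human coding transcripts were used, summed per gene, and a gene entered where all its coding accessions lie in the part of the accession order that each of the 4 deposited tables covers. This held for 4201 of the 10550 human genes listed in at least 1 table of the series. Of these, 155 were set aside because an isoform may be missing from the tables, and 1489 lay under the filter of a level of 1 in at least 2 of the 4 libraries, which left 2557 genes tested.

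The heterokaryons were made by fusing D3 cells, a mouse embryonic stem cell line, with MRC5 cells, a human fibroblast line, and at least 30000 fused cells were sorted for each RNA extraction. The co-cultures held both cell lines grown together without fusion, and both were harvested as 1 RNA. Heterokaryons of days 1 and 2, unfused MRC5 fibroblasts and fibroblasts fused with each other (homokaryon, 1 library) are used below as further levels. Every mixed library also holds mouse RNA, and the sources used here do not state how reads were divided between the species; the part of this step in the results was not tested. The labels do not say whether replicates came from separate fusions or cultures, so p-values measure the spread between these libraries.

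A heterokaryon keeps the nuclei of its parents apart in a shared cytoplasm and does not go on to divide as a cell line. Factors made from the stem cell genome can thereby reach the fibroblast genome without DNA replication, and the fusion has been used to follow early steps of reprogramming towards pluripotency. Reprogramming of fibroblasts generally involves loss of mesenchymal features, gain of epithelial ones and activation of the pluripotency factors. Human transcripts report on the fibroblast genome, and mouse transcripts report on the stem cell genome.

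Levels are in RPKM, an inferred name for the deposited unit, and read totals were not given, so no counting interval is printed. The replicates correlated across tested genes at r = 0.892 at day 3 and 0.942 in co-culture on the scale of log2(RPKM + 1). The fibroblast label was checked against markers. Of 13 covered fibroblast markers, 10 were at 1 or more in all 4 libraries, and their summed level was 6868 and 7014 RPKM at day 3, against 7034 and 7142 RPKM in co-culture. COL1A1, COL1A2 and VIM made up most of this sum. The defining collagen gene COL1A1 stood at 2980.2 and 2702 RPKM at day 3, against 2419 and 2428 RPKM in co-culture. The intermediate filament gene VIM was at 1944 and 1429 RPKM, against 2185 and 2087 RPKM. Named after their values were seen, PDGFRB was at 35.2 and 47.2 RPKM, against 73.9 and 88.2 RPKM, and FAP at 0.504 and 0 RPKM, against 2.85 and 9.13 RPKM. The marker FBLN2 was higher in both day 3 libraries. None of the 6 covered pluripotent markers and 1 of the 7 covered haematopoietic markers reached 1 RPKM in any of the 4 compared libraries. That haematopoietic marker, the globin gene HBA1, was at 0 and 23.4 RPKM at day 3 and listed in neither co-culture library.

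At an adjusted p under 0.05 in limma, fitted across all 2557 genes, 79 human genes were higher (3.09% of those tested) and 41 were lower (1.6%) at day 3 than in co-culture, together 4.69%. The counts of calls per gene list below are to be read beside these shares, and no list was tested as a set. Genes under 1 RPKM in both co-culture libraries passed the filter only through day 3 and had to lie higher. The reverse holds for genes under 1 RPKM in both day 3 libraries. The median log2 difference of all tested genes was 0.03, with quartiles at -0.51 and 0.62. All log2 differences are on the scale of log2(RPKM + 1), which understates changes of low genes. The groups did not overlap for any of the 120 called genes, which also holds for 49.8% of all tested genes, and 19.9% of all tested genes had an unadjusted p under 0.05. In bulk RNA, fewer cells expressing a gene and less RNA per cell cannot be told apart. With only the compared groups in the fit, 8 of the 79 and 5 of the 41 calls stood, and with no filter on low values 54 and 17 did. Most of these calls were lost or not tested when either co-culture replicate, or day 3 replicate 2, was left out. Fewer were lost without day 3 replicate 1. Such fits leave 1 library in a group, and some genes called in them are not among the calls reported here. C3, KRT19 and GPX3 were called in all 4 fits that left out 1 of the compared libraries; every other call against co-culture was lost, or could not be tested, in at least 1 of these fits.

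**Figure D1:**
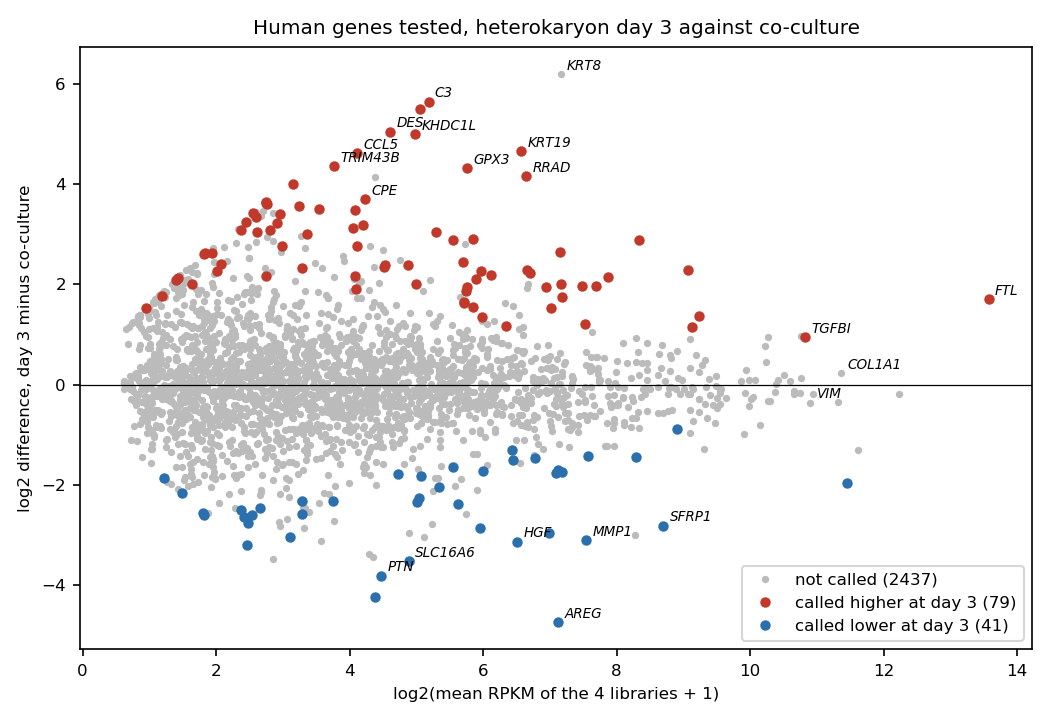
Difference between day 3 and co-culture (y axis, log2) against the mean level of the 4 libraries (x axis, log2 of RPKM + 1), 1 point per tested human gene. The 79 genes called higher spread over the whole range of levels up to FTL, the 41 called lower are led by AREG, and the fibroblast genes COL1A1 and VIM lie near 0.

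The largest rises among the more abundant genes were in C3, CRIP1, DES, KHDC1L, KRT19 and CCL5. C3, the central complement component (accession NM_000064), was at 78.4 and 61.9 RPKM at day 3, against 1.002 and 0 RPKM in co-culture (log2 difference 5.64, SE 0.55, adjusted p = 0.0015). Both day 3 libraries lay far above the co-culture libraries, and C3 stood at 0.0287 RPKM in unfused fibroblast replicate 2 and at 39.3 RPKM in the homokaryon library. KRT19, a keratin of simple epithelia (NM_002276), was at 221 and 144 RPKM at day 3, against 5.94 and 6.29 RPKM in co-culture (4.66, SE 0.33, adjusted p = 0.000607). It stood at 6.95 RPKM in unfused fibroblast replicate 2 and at 3.18 RPKM in the homokaryon library, so both lay near the co-culture level. GPX3, a secreted glutathione peroxidase, was at 99.0 and 105 RPKM at day 3, against 3.45 and 4.98 RPKM in co-culture (4.32, SE 0.30, adjusted p = 0.000607).

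The LIM domain gene CRIP1 was at 75.3 and 52.2 RPKM at day 3, against 0.985 and 0 RPKM in co-culture (5.50, SE 0.45, adjusted p = 0.00118). Desmin, the muscle intermediate filament gene DES, was at 36.7 and 55.8 RPKM at day 3, against 0.972 and 0 RPKM in co-culture (5.04, SE 0.53, adjusted p = 0.00409). Both genes were also at or near 0 in unfused fibroblast replicate 2 (0.678 and 0.234 RPKM) and listed at 0 in the homokaryon library. The small GTPase gene RRAD was at 110.5 and 267 RPKM at day 3, against 15.2 and 4.86 RPKM in co-culture (4.15, SE 0.57, adjusted p = 0.0117). CPE, a carboxypeptidase that processes prohormones, was at 31.6 and 35.6 RPKM, against 0.53 and 3.58 RPKM (3.71, SE 0.56). The cAMP phosphodiesterase gene PDE4C was at 19.4 and 41.0 RPKM at day 3, against 1.10 and 2.24 RPKM in co-culture (3.49, SE 0.47). TNFRSF10C, a decoy receptor for the death ligand TRAIL, and the kinase gene RPS6KA1 rose by 3.19 and 3.11 on the log2 scale. Of the 79 rises, 14 were of genes listed in neither co-culture library and 15 of genes listed in 1 of the 2; for these the size of the difference depends on the pseudocount.

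Large falls were seen in AREG, PTN, SLC16A6, HGF and MMP1. AREG, a ligand of the EGF receptor, was at 3.39 and 21.6 RPKM at day 3, against 232 and 297 RPKM in co-culture (-4.72, SE 0.66, adjusted p = 0.00958). The co-culture libraries were the high ones for this gene; AREG stood at 3.23 RPKM in unfused fibroblast replicate 2 and was listed at 0 in the homokaryon library. HGF, the hepatocyte growth factor that fibroblasts secrete, was at 11.4 and 25.9 RPKM, against 127 and 198 RPKM (-3.13, SE 0.47, adjusted p = 0.00958), and at 22.8 RPKM in the unfused library. For AREG and HGF the unfused library lay nearer to day 3 than to co-culture.

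In other genes that fell, the unfused fibroblasts lay above both day 3 libraries. MMP1, the interstitial collagenase, was at 30.3 and 47.6 RPKM at day 3, against 371 and 296 RPKM in co-culture (-3.09, SE 0.42, adjusted p = 0.0084), and at 199 RPKM in unfused fibroblast replicate 2. SFRP1, a secreted WNT antagonist, was at 81.5 and 129 RPKM at day 3, against 704 and 744 RPKM in co-culture (-2.81, SE 0.33, adjusted p = 0.00584). It stood at 495 RPKM in the unfused library and 114 RPKM in the homokaryon library. The pleiotrophin gene PTN was at 0.13 and 6.38 RPKM, against 37.9 and 40.8 RPKM (-3.80, SE 0.85, adjusted p = 0.045), and at 30.8 RPKM in the unfused library. NPTX1, a neuronal pentraxin, was at 28.1 RPKM in both day 3 libraries, against 227 and 219.9 RPKM in co-culture (-2.95, SE 0.29, adjusted p = 0.00255). It stood at 40.2 RPKM in the unfused library and 39.9 RPKM in the homokaryon library, nearer to day 3 than to co-culture. The nuclear protein gene TRNP1, the elastic fibre gene MFAP4, the collagen receptor gene ITGA2, the hexokinase gene HK2, the fibulin gene EFEMP1 and the transcription factor gene NFIX fell by 2.85, 2.37, 2.34, 2.32, 2.26 and 2.03 on the log2 scale. HK2 was at 9.19 RPKM in the unfused library. The transporter gene SLC16A6, which the unfused libraries do not cover, fell by 3.52 on the log2 scale.

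**Figure D2:**
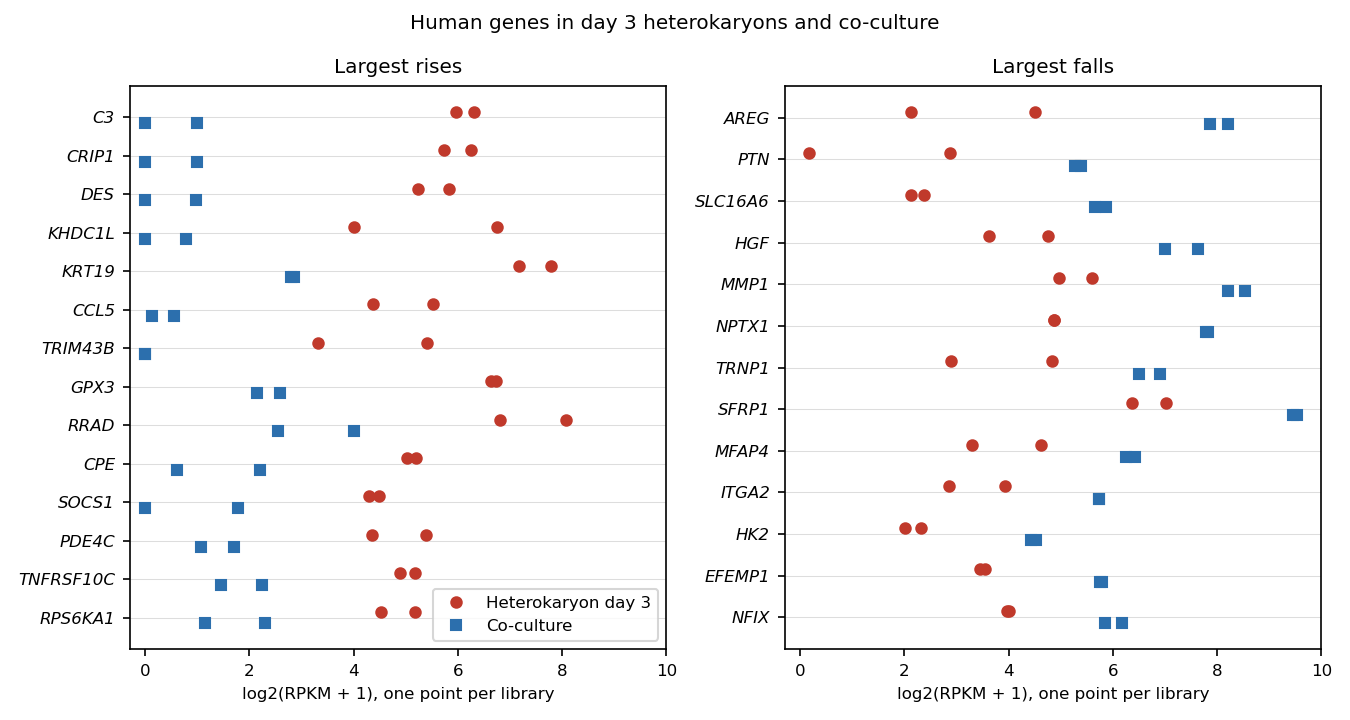
Levels (x axis, log2 of RPKM + 1) of 14 genes called higher, in the left panel, and 13 called lower, in the right panel, with circles for the 2 day 3 libraries and squares for the 2 co-culture libraries. The groups do not overlap for any gene shown; KHDC1L, TRIM43B, AREG and PTN have the widest spread between the day 3 replicates.

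Set against the unfused parent, 67 of the 68 genes called higher that unfused fibroblast replicate 2 covers were lower there than in both day 3 libraries, as were 37.6% of all tested genes. In the homokaryon library 75 of 79 were lower than in both day 3 libraries, against 41.8% of all tested genes. Of the 37 genes called lower and covered by the unfused library, 33 were higher there than in both day 3 libraries (31.0% of all tested genes), and in the homokaryon library 29 of 41 were (28.0%). The called genes were chosen for a high or low day 3 level, so these counts are a description.

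Of 18 covered genes of the preimplantation human embryo, 9 and 12 were listed in the day 3 libraries, against 2 and 1 in the co-culture libraries. These genes are transcribed when the embryonic genome first becomes active and are silent in fibroblasts. Of the 18, 7 passed the filter, 6 of them only through the day 3 libraries, where they are high, so the counts and the median describe selected members. Of the 7, 3 rose and 0 fell; the median log2 difference was 3.24, against 0.03 for all genes. That median is the value of CCNA1, which is listed in neither co-culture library, so it depends on the pseudocount. KHDC1L was at 15.1 and 107 RPKM at day 3, against 0.722 and 0 RPKM in co-culture (4.99, SE 0.95, adjusted p = 0.0236). RFPL4B, of the RFPL family, was at 5.39 and 14.9 RPKM at day 3 and listed in neither co-culture library (adjusted p = 0.0176). The cyclin gene CCNA1, which is largely restricted to the germ line in the adult, was at 11.6 and 6.09 RPKM at day 3 and listed in neither co-culture library (adjusted p = 0.0208).

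RFPL4A was at 4.92 and 16.6 RPKM and PRAMEF12 at 1.33 and 5.22 RPKM at day 3, with both listed in neither co-culture library, and neither passed the test (adjusted p = 0.061 and 0.113). The remaining tested members were the histone demethylase gene KDM4E, at 1.01 and 2.19 RPKM at day 3 and in neither co-culture library, and the homeobox gene ARGFX, at 0 and 1.40 RPKM, against 1.29 and 0.391 RPKM. Below the filter, PRAMEF6, PRAMEF11 and PRAMEF4 were listed in both day 3 libraries, at 0.651 and 1.89, 0.393 and 3.19, and 0.393 and 0.576 RPKM, and in neither co-culture library. The homeobox gene LEUTX was at 0 and 0.382 RPKM at day 3, and DUX4, the transcription factor that activates many of these genes, was listed in none of the libraries. The summed level of the 18 was 40.8 and 160.04 RPKM at day 3, against 2.02 and 0.391 RPKM in co-culture.

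TRIM43B, a gene of cleavage-stage embryos outside this list, was at 8.91 and 41.4 RPKM at day 3 and listed in neither co-culture library (adjusted p = 0.0143). In each of KHDC1L, TRIM43B, RFPL4A, RFPL4B and PRAMEF12 replicate 2 was the higher day 3 library, and in CCNA1 replicate 1 was. The same 18 members summed to 218 and 226 RPKM in the day 2 libraries, where 17 and 18 of them are covered, and to 16.2 and 9.37 RPKM in the day 1 libraries. LEUTX, at 0 and 0.382 RPKM at day 3, was at 14.5 and 6.80 RPKM at day 2. KHDC1L, TRIM43B, RFPL4A and the PRAMEF genes have close paralogs, so reads may have been divided between copies.

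**Figure D3:**
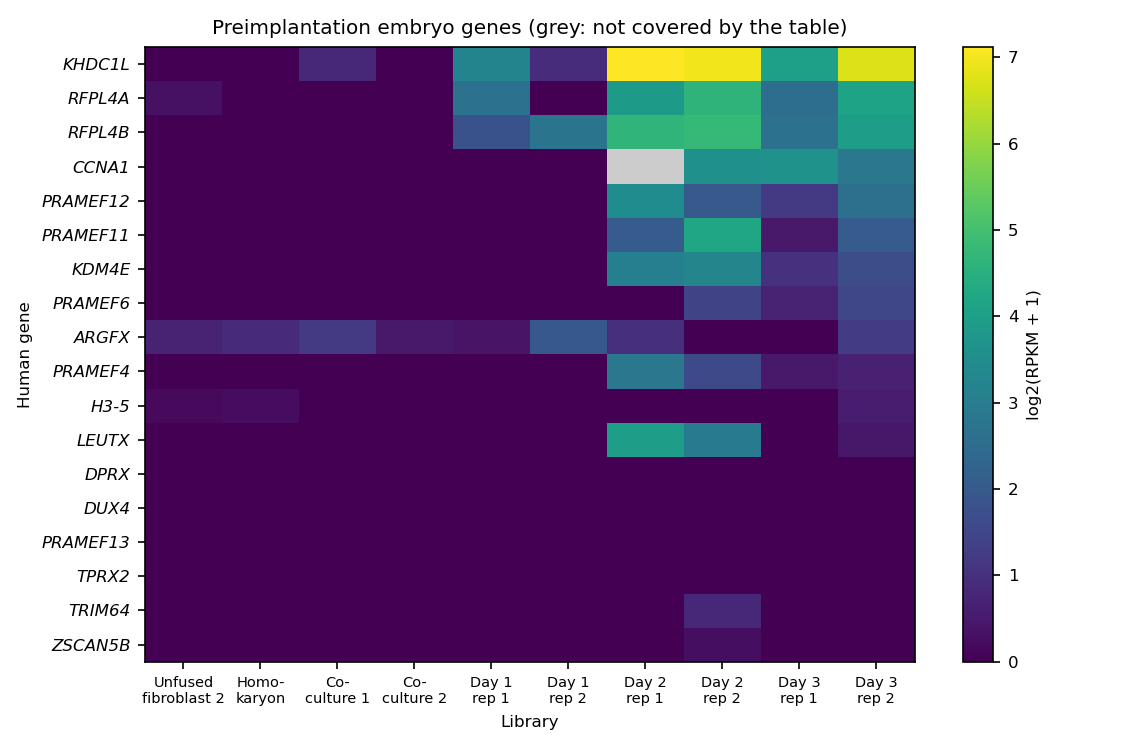
Levels (colour, log2 of RPKM + 1) of the 18 covered genes of the preimplantation embryo list, in rows, in 10 libraries, in columns. Signal lies in the heterokaryon columns, with KHDC1L brightest; the co-culture, homokaryon and unfused columns are at or near 0 except for low ARGFX and KHDC1L.

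The pluripotency list was covered in small part. Of 11 covered members 4 were tested, and KLF4, one of the reprogramming factors, rose, at 9.16 and 16.02 RPKM at day 3, against 0 and 1.01 RPKM in co-culture (3.21, SE 0.61, adjusted p = 0.0327). MYC was at 49.5 and 54.5 RPKM, against 19.5 and 17.9 RPKM (1.43, SE 0.39, adjusted p = 0.0752), and KLF5 at 4.38 and 10.6 RPKM, against 2.70 and 2.22 RPKM (1.19, SE 0.56, adjusted p = 0.287). The tetraspanin gene CD9 was at 142 and 182 RPKM, against 244 and 251 RPKM (-0.62, SE 0.25, adjusted p = 0.22). The pluripotency regulators SOX2, DPPA5, LEFTY2, ESRRB and FGF4 were listed in none of the 4 libraries. POU5F1 (OCT4) is covered only in part and so lies outside these counts and the test. Its covered transcripts summed to 27.3 and 18.7 RPKM at day 3, against 0 and 0.0847 RPKM in co-culture. LIN28B was at 0.282 and 0.393 RPKM and UTF1 at 0 and 0.215 RPKM at day 3, with both listed in neither co-culture library.

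Keratins and epithelial junction genes had a median log2 difference of 1.48. Of 13 tested members 2 rose, KRT19 and KRT14, and 0 fell. In all, 10 of the 13 were higher in both day 3 libraries than in both co-culture libraries, as were 27.1% of all tested genes. On the lower side 1 member lay apart, as did 22.6% of all tested genes. At an unadjusted p under 0.05 in limma 7 were higher and 1 was lower. KRT14, KRT17, CDH1 and CDH3 passed the filter only through the day 3 libraries and so had to lie apart. Nothing is read from these counts or the median. KRT14, a keratin of basal epithelia, was at 2.73 and 3.85 RPKM at day 3 and listed in neither co-culture library (adjusted p = 0.0251). The claudin gene CLDN4 was at 6.60 and 10.3 RPKM, against 0 and 1.601 RPKM (2.52, SE 0.60, adjusted p = 0.0537), and the P-cadherin gene CDH3 at 1.68 and 5.74 RPKM and in neither co-culture library (adjusted p = 0.124). KRT8, named after its values were seen, was at 361 and 195 RPKM at day 3, against 0 and 12.4 RPKM in co-culture, with no call (6.18, SE 2.18, adjusted p = 0.154); it has many processed pseudogenes. The epithelial markers EPCAM and CDH1 stayed low, at 3.33 and 0.570 RPKM and at 2.495 and 1.43 RPKM at day 3, against 0 in both co-culture libraries for EPCAM and 0.0885 and 0 RPKM for CDH1. CLDN7 was at 5.57 and 18.6 RPKM at day 3, against 6.54 and 4.30 RPKM in co-culture, so the groups overlapped. CLDN3 was listed in none of the 4 libraries. The 7 covered epithelial markers summed to 600.03 and 369 RPKM at day 3, against 12.6 and 24.6 RPKM in co-culture, and the part of other cells in this was not tested.

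Members of the muscle contractile list moved in both directions. The list also holds the LIM domain gene CRIP1 and the small heat shock protein gene CRYAB, which are not contractile genes. Of 19 tested members 4 rose and 1 fell, against 3.09% and 1.6% of all tested genes. The median log2 difference was 0.56. CRIP1, DES and MYL4 passed the filter only through the day 3 libraries and so had to lie higher. Nothing is read from these counts or the median. Besides CRIP1 and DES, the smooth muscle actin gene ACTA2 was at 373 and 202 RPKM at day 3, against 66.0 and 73.9 RPKM in co-culture (1.96, SE 0.31, adjusted p = 0.0143). ACTA2 stood at 170 RPKM in unfused fibroblast replicate 2 and at 151 RPKM in the homokaryon library, above both co-culture libraries and below both day 3 libraries. The small heat shock protein gene CRYAB was at 164 and 224 RPKM, against 50.1 and 47.6 RPKM (1.95, SE 0.30, adjusted p = 0.0126). TAGLN2 fell, at 359 and 313 RPKM, against 629 and 606 RPKM (-0.88, SE 0.19, adjusted p = 0.0433). The slow skeletal troponin gene TNNT1 was at 16.5 and 32.7 RPKM, against 4.42 and 2.55 RPKM, and the myosin light chain gene MYL4 at 3.46 and 4.29 RPKM and in neither co-culture library, with no call (adjusted p = 0.147 and 0.161). MYOD1 and MYOG, the regulators that define skeletal muscle, were listed in none of the 4 libraries. The summed level of the 7 covered muscle markers was 2910.3 and 1282 RPKM at day 3, against 1262 and 1197 RPKM in co-culture. TAGLN, named after its values were seen, made up most of this sum, at 1963 and 929 RPKM, against 985 and 977 RPKM. The groups overlapped for TAGLN, and also for the markers ACTG2 and CNN1.

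**Figure D4:**
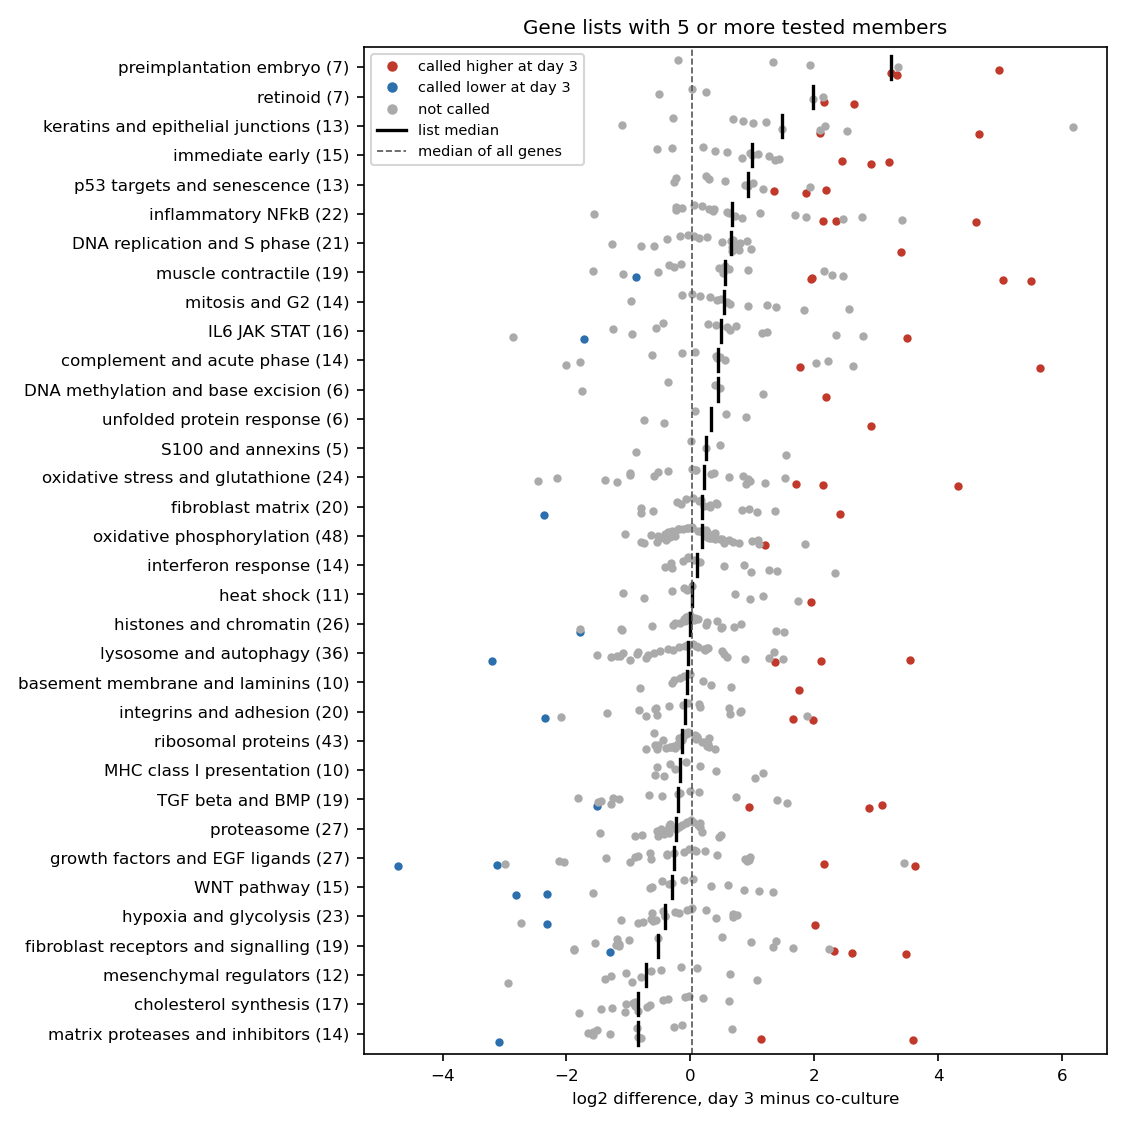
Log2 difference between day 3 and co-culture (x axis) of each tested member of the lists with at least 5 tested members, with the number tested in brackets. Black bars are list medians, the dashed line is the median of all genes (0.03), and red and blue points are members called higher and lower; several members of the upper lists passed the filter only through the day 3 libraries, and matrix proteases have the lowest median.

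Some genes of inflammation and innate defence were higher at day 3. Of 22 tested members of the inflammatory NF-kB list 3 rose and 0 fell (median log2 difference 0.67). Over all tested genes 3.09% were called higher and 1.6% lower. CCL5, CXCL6 and CXCL2 passed the filter only through the day 3 libraries and so had to lie higher. Nothing is read from this count or the median. The chemokine gene CCL5 was at 19.7 and 44.7 RPKM at day 3, against 0.0894 and 0.459 RPKM in co-culture (4.61, SE 0.52, adjusted p = 0.00548). CCL2, a monocyte attractant, was at 30.5 and 44.4 RPKM, against 5.44 and 7.56 RPKM (2.35, SE 0.41, adjusted p = 0.0208), and the mitochondrial superoxide dismutase gene SOD2 at 439 and 321 RPKM, against 73.9 and 96.6 RPKM (2.14, SE 0.28, adjusted p = 0.0084). CCL2 and SOD2 were at 185 and 340 RPKM in the homokaryon library. The neutrophil attractants CXCL6 and CXCL2 were at 13.5 and 10.9 RPKM and at 8.86 and 4.35 RPKM at day 3, against 0.524 and 0 RPKM and 0.731 and 0 RPKM, with no call (adjusted p = 0.0733 and 0.0945).

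Of 14 tested complement and acute phase genes, C3 and ORM1 rose and 0 fell (median 0.45). ORM1, an acute phase glycoprotein, was at 3.65 and 1.51 RPKM at day 3 and listed in neither co-culture library (adjusted p = 0.0482). It too passed the filter only through the day 3 libraries. Complement factor B, CFB, was at 8.85 and 16.1 RPKM, against 1.96 and 0.472 RPKM (2.63, SE 0.62, adjusted p = 0.0534), and the protease inhibitor gene A2M at 4.75 and 4.08 RPKM, against 18.0 and 24.0 RPKM (-2.01, SE 0.55, adjusted p = 0.077). Of 14 tested interferon response genes 0 were called in limma and 2 were higher at an unadjusted p under 0.05, BST2 and IRF1 (2.33 and 0.97, adjusted p = 0.122 and 0.171). Of 10 tested genes of MHC class I presentation 0 were called and 1, the peptide transporter gene TAP1, was higher at an unadjusted p under 0.05, at 66.1 and 66.3 RPKM, against 28.3 and 34.9 RPKM (1.05, adjusted p = 0.0705).

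Among 16 tested genes of the IL6 JAK STAT pathway, which carries the LIF signal in mouse stem cells, 1 rose and 1 fell (median 0.50). SOCS1, an inhibitor of JAK kinases, rose to 21.4 and 18.6 RPKM at day 3, against 0 and 2.43 RPKM in co-culture (adjusted p = 0.029). The ligand LIF fell to 33.0 and 25.05 RPKM, against 91.1 and 102 RPKM (adjusted p = 0.0272). Without a call, the inhibitor SOCS2 was at 2.45 and 0.583 RPKM, against 20.96 and 12.1 RPKM (-2.86, adjusted p = 0.0565), the kinase gene PIM1 at 30.3 and 158 RPKM, against 5.40 and 15.1 RPKM (2.80, adjusted p = 0.0713), and IL6 at 44.3 and 23.1 RPKM, against 5.58 and 5.36 RPKM (2.35, adjusted p = 0.131). The receptor gene OSMR and the inhibitor SOCS3 had differences of -0.93 and 1.16 (adjusted p = 0.213 and 0.22). Those of PIM3, JAK1, IL11, STAT6, JUNB, STAT5A, CTF1, TYK2 and IL11RA were 1.24, 0.64, -1.24, -0.56, 0.59, 0.74, 0.41, 0.29 and -0.44, with adjusted p between 0.265 and 0.854.

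Immediate early genes, which respond first to growth and stress signals, had a median difference of 0.99. Of 15 tested members 3 rose and 0 fell, and 12 were higher in both day 3 libraries than in both co-culture libraries, against 27.1% of all tested genes, of which 3.09% were called higher. ATF3, a stress-induced transcription factor, was at 99.7 and 100.5 RPKM at day 3, against 9.30 and 16.5 RPKM in co-culture (2.91, SE 0.34, adjusted p = 0.00584). The phosphatase gene DUSP5 was at 50.6 and 125 RPKM, against 11.5 and 16.5 RPKM (2.45, SE 0.47, adjusted p = 0.0329), and KLF4 is the third. JUN was at 46.6 and 70.5 RPKM, against 19.7 and 23.6 RPKM (1.37, SE 0.34, adjusted p = 0.0618).

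Of 13 tested p53 targets and senescence genes 3 rose and 0 fell (median 0.93). Over all tested genes 3.09% were called higher and 1.6% lower. The DNA damage recognition genes XPC and DDB2 were at 85.2 and 81.4 RPKM and at 74.4 and 107 RPKM at day 3, against 18.4 and 26.2 RPKM and 32.6 and 36.1 RPKM in co-culture (1.88 and 1.36, adjusted p = 0.0251 and 0.0471). GADD45A, a growth arrest gene, was at 90.5 and 136 RPKM, against 21.5 and 25.7 RPKM (2.19, adjusted p = 0.0482). It was also the one called member of 6 tested genes of DNA methylation and base excision. The apoptosis gene BAK1 and the kinase gene PLK3 had differences of 1.18 and 1.93 without a call (adjusted p = 0.0659 and 0.0733).

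Of 24 tested oxidative stress and glutathione genes GPX3, SOD2 and FTL rose and 0 fell (median 0.22). FTL, the ferritin light chain that stores iron, had the highest level of the tested genes at day 3, at 14932.5 and 22618 RPKM, against 5872 and 5404 RPKM in co-culture (1.71, SE 0.25, adjusted p = 0.00915). It has processed pseudogenes. Of 36 tested lysosome and autophagy genes 3 rose and 1 fell (median -0.04). The autophagy receptor gene SQSTM1 was at 777 and 962 RPKM, against 337 and 335 RPKM (1.36, SE 0.22, adjusted p = 0.0195), GM2A at 59.5 and 134 RPKM, against 22.1 and 18.1 RPKM (2.11, adjusted p = 0.0247), and the fucosidase gene FUCA1 at 23.8 and 9.09 RPKM, against 0.816 and 0 RPKM (3.55, adjusted p = 0.0402). ATG12 was listed in neither day 3 library, against 13.2 and 4.94 RPKM in co-culture (adjusted p = 0.0395). Of 11 tested heat shock genes CRYAB rose, and of 6 unfolded protein response genes ATF3 did, with 0 falls in either list.

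The fibroblast matrix as a group lay close to the co-culture level. Of 20 tested members 1 rose and 1 fell (median 0.20). The fall was in MFAP4, at 8.89 and 23.8 RPKM at day 3, against 84.5 and 75.6 RPKM in co-culture (adjusted p = 0.0318), and the rise in FBLN2, the fibulin-2 gene, at 4.32 and 7.85 RPKM, against 0 and 0.66 RPKM (adjusted p = 0.0495). COL5A2 was at 62.0 and 75.1 RPKM, against 118 and 121 RPKM, and FBN2 at 27.4 and 16.1 RPKM, against 10.7 and 8.39 RPKM, neither with a call (adjusted p = 0.197 and 0.198). Of 10 tested genes of basement membrane and laminins COL7A1, the anchoring fibril collagen, rose to 185 and 262 RPKM, against 56.6 and 73.5 RPKM (1.76, SE 0.27, adjusted p = 0.0105). Of 12 tested mesenchymal regulators 0 were called in limma; 1 was higher and 3 were lower at an unadjusted p under 0.05 (median -0.72). The transcription factor genes SALL1 and FOXF1 were at 2.95 and 10.3 RPKM and at 127 and 107 RPKM, against 45.9 and 55.7 RPKM and 249 and 202 RPKM (adjusted p = 0.0733 and 0.152).

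Matrix proteases and their inhibitors had the lowest median of the lists with at least 5 tested members, at -0.85. Of 14 tested members MMP1 fell and the inhibitors TIMP4 and TIMP3 rose. TIMP4 was at 8.12 and 15.02 RPKM at day 3 and listed in neither co-culture library (adjusted p = 0.0121), and TIMP3 was at 993 and 574 RPKM, against 342 and 339 RPKM (1.15, SE 0.27, adjusted p = 0.0484). The urokinase gene PLAU was at 852 and 801 RPKM, against 1529.7 and 1360.2 RPKM (-0.80, SE 0.19, adjusted p = 0.0547), and TIMP2 at 221 and 205 RPKM, against 385 and 380.2 RPKM (-0.84, adjusted p = 0.0701). In all, 10 of the 14 were lower in both day 3 libraries than in both co-culture libraries, against 22.6% of all tested genes.

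Of 20 tested integrin and adhesion genes the syndecan genes SDC4 and SDC1 rose and ITGA2 fell (median -0.08). SDC4 was at 303 and 357 RPKM at day 3, against 83.6 and 82.6 RPKM in co-culture (1.97, SE 0.22, adjusted p = 0.00538), and SDC1 at 69.4 and 87.3 RPKM, against 22.4 and 25.9 RPKM (1.65, SE 0.27, adjusted p = 0.0173). ITGA2, the alpha chain of a collagen receptor, was at 14.2 and 6.20 RPKM, against 52.0 and 51.9 RPKM (adjusted p = 0.0301). Among 19 tested fibroblast receptors and signalling genes (median -0.51), 3 rose, among them PDE4C and the adenosine receptor gene ADORA2B, and 1 fell, the thrombin receptor gene F2R. ADORA2B was at 13.1 and 17.1 RPKM at day 3, against 1.15 and 3.76 RPKM in co-culture (adjusted p = 0.0372). F2R was at 49.2 and 48.6 RPKM, against 113 and 130.4 RPKM (-1.30, SE 0.26, adjusted p = 0.0313).

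Among 19 tested genes of TGF beta and BMP signalling, 3 rose and 1 fell (median -0.20). CCN1, a matricellular protein induced by growth factors, was at 339.8 and 808 RPKM at day 3, against 78.9 and 62.5 RPKM in co-culture (2.88, SE 0.38, adjusted p = 0.0084). The ligand gene TGFB2 was at 13.6 and 9.44 RPKM, against 0 and 1.11 RPKM (3.09, SE 0.68, adjusted p = 0.0433), while the ligand gene TGFB1 was at 47.7 and 94.9 RPKM, against 181 and 149 RPKM (-1.27, SE 0.33, adjusted p = 0.0644). The matrix protein gene TGFBI rose to 2630.5 and 2151 RPKM, against 1236 and 1241 RPKM (0.94, SE 0.21, adjusted p = 0.0385), and the co-receptor gene ENG fell to 57.0 and 34.5 RPKM, against 133 and 122 RPKM (-1.50, SE 0.32, adjusted p = 0.0388). ENG is also carried by endothelial cells. Of 8 covered genes of the endothelial list 3 were tested, too few to read as a group (median -1.59). All 3 lay lower in both day 3 libraries than in both co-culture libraries, as did 22.6% of all tested genes. Besides ENG, the receptor gene TEK was at 1.14 and 1.52 RPKM, against 6.55 and 5.78 RPKM. The receptor gene FLT1 was at 0 and 1.22 RPKM, against 3.51 and 3.45 RPKM. Neither TEK nor FLT1 was called (adjusted p = 0.146 and 0.352). The 6 covered endothelial markers summed to 1.29 and 5.03 RPKM at day 3, against 7.22 and 6.29 RPKM in co-culture, with CDH5 listed in none of the 4 libraries, and the part of such cells in the fall of ENG was not tested. Of 15 tested WNT genes SFRP1 and the receptor gene FZD1 fell and 0 rose (median -0.29). FZD1 was at 2.71 and 1.85 RPKM, against 14.4 and 16.1 RPKM (adjusted p = 0.04), and the ligand gene WNT5A was at 13.99 and 12.3 RPKM, against 38.3 and 44.2 RPKM, with no call (adjusted p = 0.134).

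Of 27 tested growth factor genes 2 rose and 2 fell (median -0.26). The falls were AREG and HGF. IGFBP2, which binds insulin-like growth factors, was at 10.4 and 12.4 RPKM at day 3 and listed in neither co-culture library (adjusted p = 0.0084), and the receptor gene IGF1R was at 26.4 and 26.9 RPKM, against 6.28 and 4.26 RPKM (2.16, SE 0.44, adjusted p = 0.0329). The secreted glycoprotein gene STC1 was at 24.1 and 171 RPKM, against 516 and 523 RPKM, with no call (-2.99, SE 0.73, adjusted p = 0.0575). Of 7 tested retinoid genes 2 rose and 0 fell. The median, 1.98, is the value of RARRES2, at 1.39 and 5.51 RPKM at day 3 and listed in neither co-culture library, so it depends on the pseudocount. CRABP2, which carries retinoic acid to its receptors, was at 247 and 243 RPKM, against 35.6 and 41.5 RPKM (2.64, SE 0.33, adjusted p = 0.0084). ALDH1A3, which makes retinoic acid, was at 11.6 and 8.35 RPKM, against 1.22 and 1.65 RPKM (2.16, SE 0.49, adjusted p = 0.0482).

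Metabolic groups moved little by call. Of 17 tested genes of cholesterol synthesis 0 were called in limma, while 8 were lower at an unadjusted p under 0.05 and 15 had a negative difference (median -0.84); 12 of the 17 were lower in both day 3 libraries than in both co-culture libraries. Over all tested genes 22.6% lay apart on the lower side, and 19.9% had an unadjusted p under 0.05 in either direction. MVD was at 9.23 and 6.54 RPKM at day 3, against 33.1 and 26.3 RPKM in co-culture, and DHCR7 at 61.5 and 81.2 RPKM, against 138 and 158 RPKM (adjusted p = 0.0565 and 0.074). Of 23 tested hypoxia and glycolysis genes the oxygen-regulated factor gene EPAS1 rose to 159 and 306 RPKM, against 51.4 and 56.6 RPKM (2.01, SE 0.37, adjusted p = 0.0251), and HK2 fell to 4.002 and 3.01 RPKM, against 20.6 and 22.2 RPKM (adjusted p = 0.0433); the median was -0.40. Of 48 tested genes of oxidative phosphorylation 1 rose, the adenine nucleotide carrier gene SLC25A5, at 222 and 292 RPKM, against 109.9 and 110.8 RPKM (1.2, SE 0.24, adjusted p = 0.0251).

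The machinery of protein synthesis and breakdown showed 0 calls in limma. All 43 tested ribosomal protein genes and all 27 tested proteasome genes also had an unadjusted p of 0.05 or more, with medians of -0.14 and -0.22. Of 26 tested histone and chromatin genes SMARCD3, a subunit of the BAF remodelling complex, fell to 11.999 and 10.03 RPKM at day 3, against 38.4 and 41.6 RPKM in co-culture (-1.78, SE 0.39, adjusted p = 0.0433). The demethylase gene KDM6B was at 18.5 and 21.3 RPKM, against 6.18 and 6.38 RPKM, with no call (1.52, SE 0.42, adjusted p = 0.0819).

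Of 21 tested genes of DNA replication and S phase 1 rose, MYBL2, a transcription factor of cycling cells, at 15.1 and 11.3 RPKM at day 3, against 0 and 0.765 RPKM in co-culture (3.41, SE 0.47, adjusted p = 0.00929); the median was 0.66. Of 14 tested genes of mitosis and G2 0 were called and 3 were higher at an unadjusted p under 0.05 (median 0.54). CENPA was at 2.01 and 3.28 RPKM and in neither co-culture library, and CKS2 at 11.4 and 36.9 RPKM, against 6.85 and 0.732 RPKM (adjusted p = 0.077 and 0.0935). Of 5 tested S100 and annexin genes 0 were called, and 0 had an unadjusted p under 0.05. Of 2 tested haematopoietic genes 0 were called and 1, CD4, was lower at an unadjusted p under 0.05. No gene of the neural list passed the filter.

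Day 3 was also set against the earlier heterokaryons. Between day 3 and day 1, 36 of 2554 tested genes were called (1.41%), 19 higher (0.744%) and 17 lower (0.666%) at day 3; 20.4% had an unadjusted p under 0.05, and the groups did not overlap for 42.2%. Of the 17 lower genes, 10 are known from proliferating cells: AURKB, CCNA2, PTTG1, TOP2A, TK1, H2AX, CKS1B, KIFC1, STIL and HMGB2. This grouping was made after the values were seen, and the share of such genes among the 2554 tested was not counted. Nothing is read from the count. The topoisomerase gene TOP2A was at 2.80 and 3.27 RPKM at day 3, against 44.1 and 30.8 RPKM at day 1 (-3.23, SE 0.44, adjusted p = 0.0289), the securin gene PTTG1 at 37.4 and 37.0 RPKM, against 600.3 and 319 RPKM (-3.52, SE 0.54, adjusted p = 0.0417), and the mitotic kinase gene AURKB at 0 and 3.74 RPKM, against 102 and 39.2 RPKM (-4.89, SE 0.82, adjusted p = 0.0467). In co-culture these genes were at 1.49 and 1.71 RPKM for TOP2A, 15.3 and 47.8 RPKM for PTTG1 and 3.14 and 3.35 RPKM for AURKB. PLAAT4, a retinoid- and interferon-inducible gene, was at 0 and 3.33 RPKM at day 3, against 64.5 and 51.6 RPKM at day 1 (-4.82, SE 0.73, adjusted p = 0.0417).

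Genes higher at day 3 than at day 1 included the cytoskeletal genes TPM1 and ZYX and the secreted or matrix genes THBS1, PAPPA, IGFBP3, INHBA and TGFBI, a grouping made after the values were seen. The chemokine gene CXCL1 was at 59.9 and 9.75 RPKM at day 3 and listed in neither day 1 library (adjusted p = 0.0472). The pentraxin gene PTX3 was at 51.1 and 44.9 RPKM at day 3, against 6.21 and 5.82 RPKM at day 1 (2.80, SE 0.35, adjusted p = 0.0289), with 32.6 and 35.7 RPKM in co-culture. The tropomyosin gene TPM1 was at 657 and 204 RPKM, against 58.6 and 44.8 RPKM (2.81, SE 0.48), with 206 and 179.7 RPKM in co-culture, and the lipid phosphatase gene PLPP3 at 22.3 and 19.0 RPKM, against 2.13 and 1.23 RPKM (3.03, SE 0.43), with 14.8 and 15.2 RPKM in co-culture. For every gene named in this paragraph both day 1 libraries lay below the day 3 and the co-culture libraries. Day 1 was thus the low point, and these differences are not rises above co-culture alone.

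Of the genes that led the day 3 comparison, none was called between day 3 and day 1: C3 had a difference of 2.18 (SE 0.55, adjusted p = 0.0777), KHDC1L of 3.34 (SE 0.95, adjusted p = 0.0931), KRT19 of 1.31 (SE 0.34, adjusted p = 0.0826) and CCL5 of -2.18 (SE 0.52, adjusted p = 0.0776). Levels at day 1 were 9.24 and 22.8 RPKM for C3, 86.6 and 58.4 RPKM for KRT19 and 135 and 143 RPKM for CCL5. Day 3 shares its libraries with the comparison against co-culture. Between day 3 and day 2, 0 of 2153 tested genes were called in limma (0%), with 178 at an unadjusted p under 0.05 (8.27%) and a smallest adjusted p of 0.12. A missed threshold with 2 libraries each does not show that the days were alike.

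**Figure D5:**
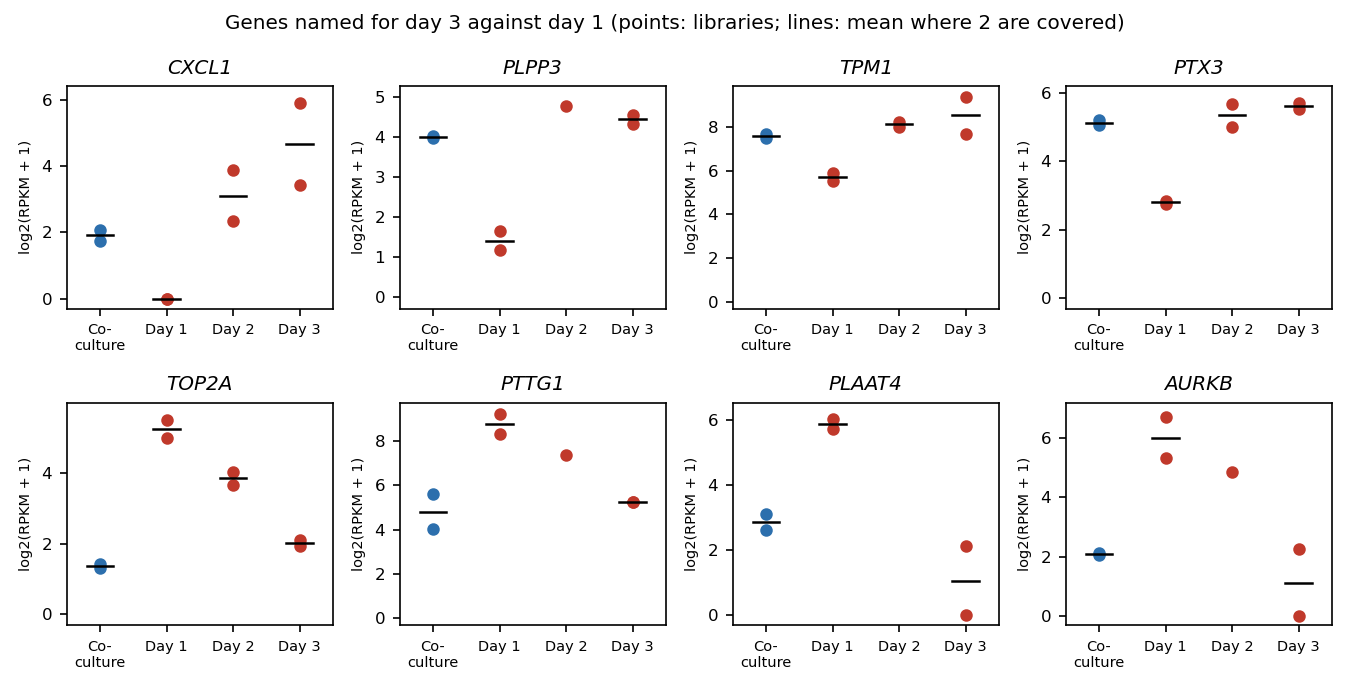
Levels (y axis, log2 of RPKM + 1) of the 8 genes named for day 3 against day 1, in co-culture and at days 1, 2 and 3 (x axis), with points for libraries and bars for means. CXCL1, PLPP3, TPM1 and PTX3 are lowest at day 1, and TOP2A, PTTG1, PLAAT4 and AURKB are highest at day 1. Day 2 of PLAAT4 and 1 day 2 library of PLPP3, PTTG1 and AURKB are not covered.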

How the data were processed

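PolyA RNA was sequenced from sorted heterokaryons and from control cultures, per the labels' protocols. The deposited values, 1 per RefSeq transcript, bear no unit in the file headers; they were taken as RPKM (FPKM or TPM have the same form). The authors' steps towards these RPKM values, aligner included, are not given in the sources used here, per the labels' protocols and file headers. The builds hg19 and mm10 are named in the submitters' processing notes. Each of the 11 tables used holds 10000 distinct values and stops at its own point in accession order; before that point a missing human transcript was taken as 0, past it as not covered. The table of unfused fibroblast replicate 3 holds no human transcript and was not used. That of replicate 1 lists 17527 transcripts, of which 5308 are human coding ones. Replicate 1 entered the fit for the genes it covers, and its part in the calls was not tested alone.

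Coding transcripts were summed per gene by the RefSeq table, with 80 accessions named from an older annotation. Set aside after seeing the data were genes beside 1 of 295 unnamed accessions, and genes with an unlisted accession of 6 digits from NM_001000 on: of 148 whose digits start a listed accession of 9 digits, 0 were listed, against 90 of 108 others. Genes were tested with limma 3.58.1 in R 4.3.3 (lmFit, eBayes with trend, log2(RPKM + 1), Benjamini-Hochberg, 2-sided) over 10 libraries of 5 groups, for genes reaching 1 in 2 or more of the compared libraries; the fit was tested on simulated data. Named genes are the 14 largest rises and falls among called, non-overlapping genes in the upper 50 percent of abundance, up to 6 called and 2 further members per list, all tested pluripotency and IL6 JAK STAT genes, and 4 rises and 4 falls against each other day; others are said to be so. A few genes that this rule names are not reported here. The comparison, the 38 gene lists and the rules were chosen with earlier results of these data known. Depth is unknown, since read totals were not given. Alternatives were other pseudocounts, filters, scalings, samples in the fit, a replicate block and leaving out each replicate.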

Additional observations from a re-analysis of the deposited data

Results flagged for a closer look

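For some named genes the effect differed between time points, in that day 3 and day 1, both read against the same co-culture, differed in limma. Lower at day 3 than at day 1 were AURKB (-4.89 on the log2 scale), PLAAT4 (-4.82), PTTG1 (-3.52), TOP2A (-3.23), HMGB2 (-2.34) and SLC25A5 (-1.29). Higher at day 3 were CXCL1 (4.68), CCNA1 (3.24), PLPP3 (3.03), TPM1 (2.81), PTX3 (2.80), INHBA (2.65), SQSTM1 (1.77), TGFBI (1.46) and PLAU (1.03). CXCL1 and CCNA1 are listed in neither day 1 library, so their values depend on the pseudocount. Every one of these calls was lost when only the compared groups entered the fit.

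A signal also lay in data outside the tests. POU5F1, the pluripotency factor OCT4, is covered in part. Its covered transcripts summed to 27.3 and 18.7 RPKM at day 3, against 0 and 0.0847 RPKM in co-culture. They summed to 26.9 and 27.4 RPKM at day 1 and to 56.9 and 48.6 RPKM at day 2. In the homokaryon library and unfused fibroblast replicate 2 they were at 0.928 and 0.543 RPKM.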

How the results depend on the processing

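Of 79 higher and 41 lower calls at day 3 against co-culture, 8 and 5 stood when only the compared groups entered the fit. Lower calls were 26 with a pseudocount of 0.1, 17 with no filter on low values and 62 with quantile normalization, which put 56.6% of calls on the higher side, against 65.8% as reported. The replicate block gave 59 higher and 19 lower calls, of which 57 and 19 are among those reported. Same-numbered replicates of day 3 and co-culture deviated with a correlation of 0.00204, so no shared shift was seen. With 2 libraries per group this cannot show whether same-numbered replicates were prepared together. Leaving out each replicate in turn gave 6 to 64 higher and 0 to 62 lower calls; a lone library was then assumed to vary like the other groups. Of 36 calls against day 1, 10 were made with a pseudocount of 0.1, 8 with no filter, 0 with only the compared groups (303 at an unadjusted p under 0.05), 11 with the replicate block and 17 to 53 without 1 replicate. Against day 2, 2 genes were called with no filter, and 1 to 13 without 1 replicate; quantile normalization moved the median difference of all genes there, -0.179 as reported, by more than 0.1, giving -0.00436. Keeping the genes set aside for an unnamed accession gave 82 and 41 calls, and keeping those with an unlisted 6-digit accession gave 79 and 39; both were chosen after seeing the data. The cause of the other shifts was not tested. No called named gene turned its direction under any of these settings. Uncalled ones that did included CTF1 without day 3 replicate 2 and IL11RA without day 3 replicate 1. ANXA1, LYZ and RPS15A, named by the rule, also turned when 1 of the compared libraries was left out. Zeros are unlisted transcripts, and depth is unknown.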
